A study of Mus musculus with 6 samples.

Results

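Ly6a, Ly6e, Ly6c1, Ly6c2 and Ly6i are 5 neighbouring genes of mouse chromosome 15 that encode small LY6 surface proteins, and they were followed here in cultured bone marrow stromal cells. The members were fixed by name, and the gene identifiers of the deposited table were matched to GENCODE M21 on GRCm38. All 5 were found among the 49328 listed genes. RNA sequencing had been done on 6 libraries of mesenchymal stromal cells (MSCs), the adherent supporting cells of marrow, taken from CB6F1 mice that had acute graft-versus-host disease (aGVHD). In culture, 3 samples received an agent that the labels call R, at 0.5 um as they write it, and 3 received DMSO, its vehicle. The sources used here do not give the identity of R, the length of treatment, or the age and sex of the mice. Every culture came from diseased animals, so the comparison is between treatments of aGVHD cells and holds no healthy cells.

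LY6 proteins are short polypeptides that fold into a single compact domain with finger-like loops and are held in the outer membrane leaflet by a glycosylphosphatidylinositol (GPI) anchor. The Ly6a product, Sca-1, is used to sort mouse haematopoietic stem cells and stromal cells, and its gene is also induced by interferons. Ly6e encodes an interferon-induced protein known to restrict coronavirus entry, and in mice the receptor for the placental protein syncytin-A. The Ly6c1 and Ly6c2 products together form the Ly-6C antigen of monocytes, endothelial cells and some T cells, and Ly6i encodes a related protein described on mouse myeloid cells. CB6F1 mice are F1 hybrids of BALB/c and C57BL/6 parents, which carry different Ly6a alleles and are known for low and high Sca-1. Cells of CB6F1 origin hold both alleles, and the gene-level values sum over alleles. Whether every cell in the cultures was of CB6F1 origin was not tested.

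The coding sequences show how far reads of the 5 genes can be told apart. Ly6c1 and Ly6c2 differed at 9 of 396 aligned coding bases (97.7% identical). Ly6a was 86.4% identical to Ly6i, 83.8% to Ly6c1 and 83.6% to Ly6c2, while Ly6e, the most distant member, was 47.6% identical to Ly6a. The 60-base stretch without gaps in which Ly6c1 and Ly6c2 differ most runs over coding bases 6 to 65, counted from the first base of the start codon, and lies in the part that encodes the signal peptide. It is shown 5′ to 3′ from the GENCODE M21 transcripts, which are of the C57BL/6J reference. Capitals mark the bases that differ from Ly6c1.
Ly6c1: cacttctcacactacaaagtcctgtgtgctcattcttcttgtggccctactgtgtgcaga
Ly6c2: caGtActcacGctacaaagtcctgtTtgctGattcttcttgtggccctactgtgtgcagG
Ly6a: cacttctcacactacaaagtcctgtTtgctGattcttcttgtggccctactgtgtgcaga
Ly6i: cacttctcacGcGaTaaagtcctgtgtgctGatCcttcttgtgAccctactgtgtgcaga
Ly6e: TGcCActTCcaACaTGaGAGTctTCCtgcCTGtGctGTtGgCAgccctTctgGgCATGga
In this stretch Ly6a differs from Ly6c1 at 2 bases, Ly6c2 and Ly6i at 6 bases each and Ly6e at 32.

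Over whole transcripts, 32.8% of the distinct 50-base words of Ly6c1 also occurred in a transcript of another gene, 21.5% in Ly6c2 and 11.1% in Ly6a. For Ly6a that share was 19.0%, and 15.03% were shared with Ly6c1. For Ly6c2 the share was 14.5%, for Ly6i it was 4.76%, and for Ly6e 0 of 4184 words were shared. With 100-base words the shares were 10.1% for Ly6c1, 5.81% for Ly6c2, 1.45% for Ly6a and 0 for Ly6i and Ly6e. The sources used here do not give the read length or how reads with several matches were treated. The values of Ly6c1, Ly6c2, Ly6a and Ly6i are therefore uncertain, with Ly6c1 sharing the most at either word length, and those of Ly6e rest on sequence of its own. No other annotated gene overlapped any of the 5.

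Each library held an estimated 1.71e+07 to 2.17e+07 counted reads. Levels are FPKM, fragment counts scaled by the authors to gene length and library size. The labelled cell type was checked against marker lists. Of 19 stromal markers, 16 reached the level needed for testing, led by Col1a1 (R libraries 327 to 588 FPKM, vehicle libraries 127 to 263 FPKM), Itgb1, Col1a2 and Cd44. Other commonly used ones, named after their values were seen, were low: Thy1 (R, 0.0554 to 0.297 FPKM; vehicle, 0.667 to 1.58 FPKM), Nt5e (R, 0.323 to 0.688 FPKM; vehicle, 0.0885 to 0.947 FPKM) and the marrow stromal marker Lepr (R, 0.102 to 0.13 FPKM; vehicle, 0.0332 to 0.22 FPKM). Macrophage transcripts were abundant in every library. The summed FPKM of 19 macrophage and monocyte markers was 13023 to 16126 in R and 15794 to 21140 in vehicle, with Lyz2, C1qb, C1qa and C1qc the highest, so the cultures were not stromal cells alone.

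Sca-1 transcript was far lower in cells treated with R. Ly6a (ENSMUSG00000075602, chromosome 15, 74994877 to 74998031, minus strand) had 12.7, 30.4 and 25.8 FPKM in R replicates 1, 2 and 3, against 194, 153 and 77.1 FPKM in vehicle replicates 1, 2 and 3. The groups did not overlap, and within each group the libraries differed widely. The mean was 23.0 ± 9.17 FPKM in R and 141 ± 59.3 FPKM in vehicle (SD, n = 3 each), a ratio of 0.162. On the log2(FPKM + 1) scale, where the added 1 shrinks differences at low values, the change was -2.56 (R minus vehicle, moderated standard error (SE) 0.41). It passed limma's test after Benjamini-Hochberg adjustment over all 11862 tested genes (adjusted p = 0.015), but not without vehicle replicate 2 (adjusted p = 0.053) nor with no filter on low values (adjusted p = 0.065). Nothing in the labels ties replicates to separate mice or dishes, and p-values then reflect only the spread among these samples, which may be technical. In such bulk samples fewer cells of a type and less RNA per cell cannot be told apart.

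Ly6e was lower in R too, with R libraries close to each other. Ly6e (ENSMUSG00000022587, chromosome 15, 74955051 to 74959905, plus strand) had 52.4, 56.5 and 41.6 FPKM in R replicates 1, 2 and 3, against 291, 224 and 191 FPKM in vehicle replicates 1, 2 and 3. Each R library was well below every vehicle library. The mean was 50.2 ± 7.67 FPKM in R and 236 ± 51.0 FPKM in vehicle (SD, n = 3 each), a ratio of 0.213. The log2 change was -2.20 (SE 0.18; limma, adjusted p = 0.00092), and it passed under each alternative tried, with adjusted p-values from 0.00014 to 0.0078. In estimated reads Ly6e was the best covered member, with 2847 to 4315 reads per R library and 14499 to 18824 per vehicle library.

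Ly6c1, a gene of the Ly-6C antigen, was lower as well, at a much lower level. Ly6c1 (ENSMUSG00000079018, chromosome 15, 75044018 to 75048830, minus strand) had 0.631, 2.62 and 2.47 FPKM in R replicates 1, 2 and 3, against 15.6, 7.73 and 6.32 FPKM in vehicle replicates 1, 2 and 3. These values stand for an estimated 23, 79 and 75 reads in R and 447, 243 and 212 reads in vehicle. The groups did not overlap, with R replicate 1 the lowest library and vehicle replicate 1 the highest. The log2 change was -1.90 (SE 0.40; limma, adjusted p = 0.036), and the mean was 1.91 ± 1.11 FPKM in R and 9.89 ± 5.01 FPKM in vehicle (SD, n = 3 each). The call was lost when any library other than vehicle replicate 3 was left out (adjusted p = 0.068 to 0.09) and with no filter on low values (adjusted p = 0.12). With a pseudocount of 5 the log2 change was -1.07. The part of reads shared with Ly6a in the Ly6c1 values was not tested.

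Ly6i and Ly6c2 were too low to be tested, since neither had an FPKM of at least 1 in 3 libraries. Ly6i (ENSMUSG00000022586, chromosome 15, 74979534 to 74983430, minus strand) had 0, 0 and 0.144 FPKM in R replicates 1, 2 and 3, against 1.57, 1.43 and 0.821 FPKM in vehicle replicates 1, 2 and 3. That is an estimated 0, 0 and 3 reads in R and 31, 31 and 19 reads in vehicle. Every R library lay below every vehicle library. Per counted read the R libraries together held 0.0358 of the vehicle level (exact 95% interval 0.00722 to 0.108), an interval that covers counting error and not the spread between cultures. With no filter on low values Ly6i passed limma's threshold (log2 change -1.11, adjusted p = 0.036).

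Ly6c2 (ENSMUSG00000022584, chromosome 15, 75108158 to 75111970, minus strand), the near-identical partner of Ly6c1, was close to 0 in both groups. It had 0, 0.0406 and 0 FPKM in R replicates 1, 2 and 3, against 0.0641, 0.156 and 0.0182 FPKM in vehicle replicates 1, 2 and 3. These are an estimated 2 reads in all R libraries and 12 in all vehicle libraries, and the groups overlapped. The ratio of R to vehicle was 0.161 (exact 95% interval 0.0175 to 0.723, counting error only). Classical monocytes carry Ly-6C, and their marker Ccr2, named after its values were seen, was near 0 too (R, 0.0340 to 0.0411 FPKM; vehicle, 0.0444 to 0.139 FPKM). Ccr2 is 1 of the 19 listed macrophage and monocyte markers, of which 17 were high enough to be tested. The part of monocytes in the Ly6c2 values was not tested.

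**Figure D1:**
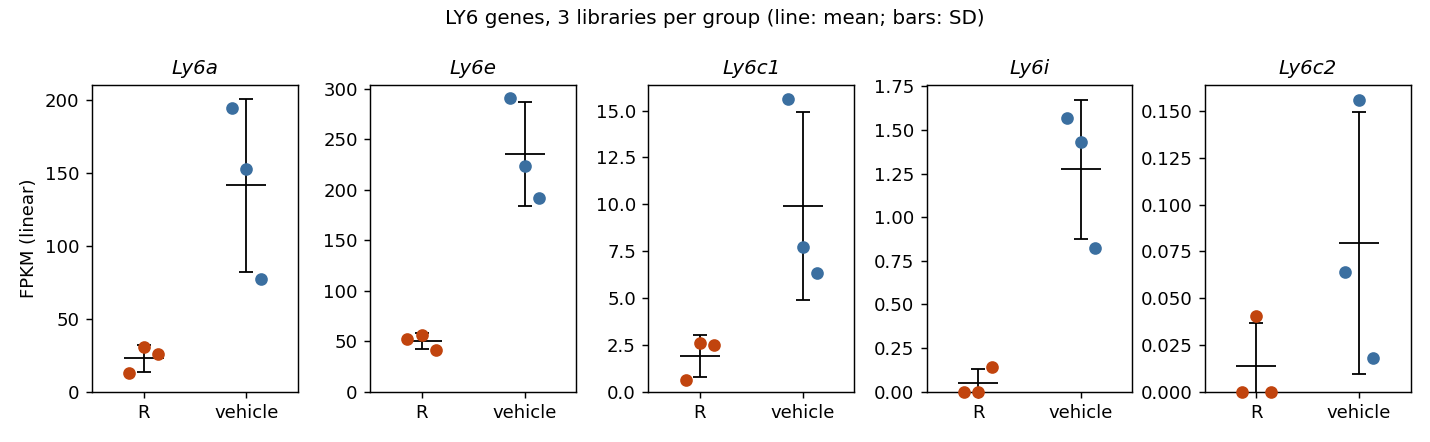
FPKM (linear axis, a separate scale for each gene) of the 5 LY6 genes in the 3 R libraries (left) and the 3 vehicle libraries (right); horizontal lines are means and bars are SD. The R libraries lie below the vehicle libraries for Ly6a, Ly6e, Ly6c1 and Ly6i, and the groups overlap for Ly6c2, whose highest value is 0.156 FPKM.

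Of the 5 members, 3 passed the filter on low values, and 3 were called lower in R, where 4.43% of all tested genes were called lower and 6.82% were called in either direction. All 3 had a log2 change of -1 or less, and 2.07% of the tested genes were called with such a change. Counting the untested members too, 4 of 5 had each R library below each vehicle library, which held for 15.5% of the tested genes. The log2 changes of Ly6a, Ly6e and Ly6c1 were lower than those of all but 46, 69 and 88 of the 11862 tested genes. The median log2 change over all tested genes was -0.00. Without vehicle replicate 2 only Ly6e was called, and with no filter on low values Ly6e and Ly6i were.

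The order of the levels was Ly6e, Ly6a and Ly6c1 in each of the 6 libraries, followed in every vehicle library by Ly6i and Ly6c2. FPKM are scaled to the summed exon length of a gene, 3784 bases for Ly6e and 1205 for Ly6a, which may differ from that of the transcripts expressed. Some reads may also be shared between members, so comparisons between the genes are approximate. In vehicle the ranges of Ly6e (191 to 291 FPKM) and Ly6a (77.1 to 194 FPKM) overlapped, whereas in R that of Ly6e (41.6 to 56.5 FPKM) lay above that of Ly6a (12.7 to 30.4 FPKM). By mean level Ly6e ranked 1066th in R and 163rd in vehicle among the tested genes, and Ly6a ranked 2417th in R and 306th in vehicle. The level of Ly6e was 4.13, 1.86 and 1.61 times that of Ly6a in R replicates 1, 2 and 3, and 1.5, 1.46 and 2.48 times in vehicle replicates 1, 2 and 3.

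Whether Ly6a fell further than its neighbours was tested on the log2 ratio within each library, in 4 pairs, by a two-sided exact permutation test that cannot go below p = 0.1 with 3 libraries against 3. The log2 ratio of Ly6a to Ly6e was -1.17 ± 0.70 in R and -0.81 ± 0.43 in vehicle (SD, n = 3 each; exact p = 0.5, adjusted p = 0.5). This difference of -0.36 was 0.039 without R replicate 1, the library with the least Ly6a. The log2 ratio of Ly6a to Ly6c1 was 3.04 ± 0.09 in R and 3.70 ± 0.38 in vehicle (exact p = 0.1, adjusted p = 0.13). This difference of -0.66 depended on the pseudocount of 1, being -0.18 with a pseudocount of 0.1 (exact p = 0.5) and -1.28 with 5. Without a pseudocount, the FPKM of Ly6a was 20.1, 11.6 and 10.4 times that of Ly6c1 in R replicates 1, 2 and 3, and 12.4, 19.8 and 12.2 times in vehicle replicates 1, 2 and 3, so these ratios overlapped. The ratios to Ly6c2 and Ly6i also reached the smallest p, but the pseudocount sets much of their size, and that to Ly6i had the opposite sign with a pseudocount of 0.1.

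The genes called lower within 500 kb of Ly6a were LY6 members, and only 3 other genes there could be tested. Of 27 protein-coding genes that start within 500 kb of the start of Ly6a, 20 were in the deposited table and 6 were high enough to be tested. Those called lower were Ly6e, Ly6a and Ly6c1, with 0 called higher. The other 3, all on the same side at -325 to -245 kb from the start of Ly6a, were not called. Of all tested genes 6.82% were called in either direction, a share that 3 genes cannot resolve. Lynx1, which encodes a GPI-anchored LY6 protein that modulates nicotinic receptors, had 9.01, 12.8 and 11.6 FPKM in R replicates 1, 2 and 3, against 6.70, 8.78 and 7.88 FPKM in vehicle replicates 1, 2 and 3. Every R library was above every vehicle library (log2 change 0.46, SE 0.15; limma, adjusted p = 0.11). Arc, an immediate early gene of neurons, and Them6, of the thioesterase superfamily, had log2 changes of 0.55 (SE 0.31; limma, adjusted p = 0.34) and -0.02 (SE 0.16; adjusted p = 0.95).

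**Figure D2:**
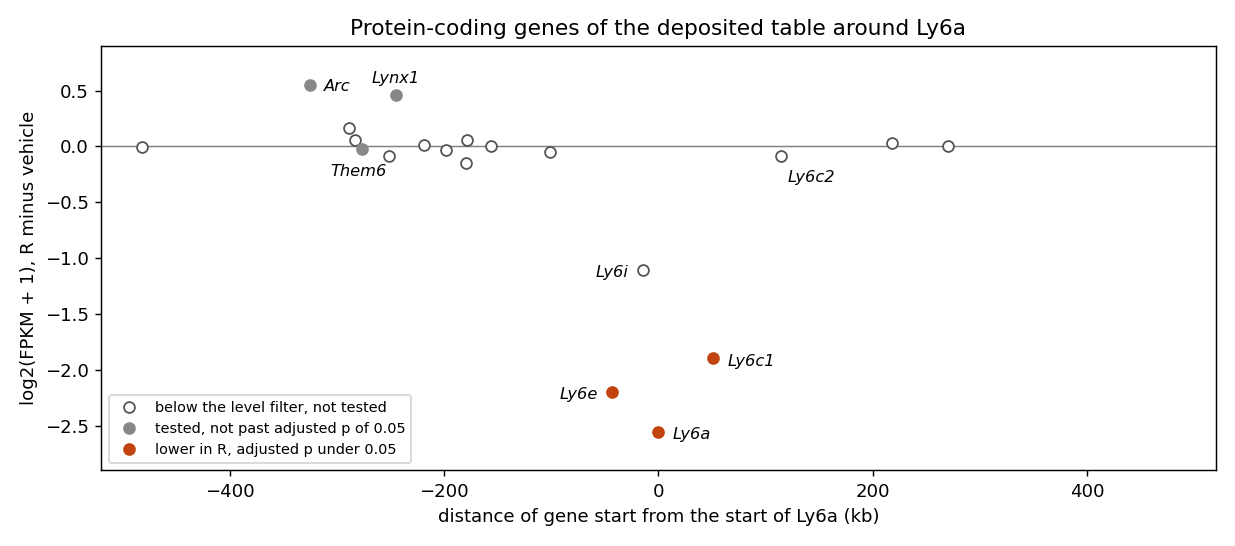
Difference in mean log2(FPKM + 1), R minus vehicle, of the 20 protein-coding genes of the deposited table within 500 kb of Ly6a, by the distance of their start from that of Ly6a in kb along the plus strand; open circles were too low to be tested. Ly6a, Ly6e, Ly6c1 and the untested Ly6i stand between -2.56 and -1.11, while Lynx1 is at 0.46 and Ly6c2 at -0.09.

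No other LY6 relative that could be tested was called lower (0 of 3), where 4.43% of all tested genes were, a share that 3 genes cannot resolve. Of 15 further LY6/uPAR genes listed for the chromosome 15 cluster, 8 were in the table and 7, among them Ly6g and Ly6d, were not analysed here. Lynx1 was the 1 that could be tested. Of 19 relatives on other chromosomes 18 were in the table and 2 could be tested. Cd59a, which encodes the GPI-anchored inhibitor of the complement membrane attack complex, had 13.6, 14.3 and 9.99 FPKM in R replicates 1, 2 and 3, against 6.18, 7.13 and 6.79 FPKM in vehicle replicates 1, 2 and 3. The groups did not overlap, and Cd59a was called higher in R (log2 change 0.81, SE 0.14; limma, adjusted p = 0.019), where 2.39% of tested genes were. That call was lost without R replicate 1 or 2 or vehicle replicate 1 or 2 (adjusted p = 0.055 to 0.076) and with no filter (adjusted p = 0.066). Plaur, the urokinase receptor, had a log2 change of 0.13 (SE 0.10; adjusted p = 0.49).

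The 5 members encode proteins held by a GPI anchor, and the genes that make and attach this anchor were not called in either direction. Of 27 listed, 24 were tested and 0 passed limma's threshold, where 6.82% of all tested genes did in either direction. Their log2 changes ran from -0.71 to 0.34, with a median of -0.01. Of the 27, 6 had every R library below every vehicle library and 3 above, where 15.5% and 13.9% of all tested genes did. At an unadjusted p under 0.05, 3 were lower in R and 1 higher. Among subunits of the transamidase that attaches the anchor, the log2 change was 0.10 for Pigs, -0.03 for Pigt and 0.01 for Gpaa1, with adjusted p-values from limma of 0.52, 0.86 and 0.96. Pigk and Pigu, further subunits named after their values were seen, had 0.17 with every R library above vehicle and -0.18 with every R library below (adjusted p = 0.26 and 0.31). Mean levels of Pigs were 79.1 ± 4.81 FPKM in R and 73.7 ± 0.56 FPKM in vehicle (SD, n = 3 each).

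Ly6a was lower in R while most other stromal markers had positive log2 changes. None of the 16 tested stromal markers other than Ly6a passed limma's threshold, where 6.82% of all tested genes did in either direction. Of the 16, 11 had a positive and 5 a negative log2 change, and their median was 0.30, against -0.00 over all tested genes. The 5 negative ones, named after their values were seen, were Cxcl12 (-1.31), Pdgfra (-0.60), Eng (-0.46), Vcam1 (-0.34) and Col3a1 (-0.22). In each of these the groups overlapped. At an unadjusted p under 0.05, 6 of the 16 were higher in R and 0 lower. The count called was 8 with array weights and 1 without R replicate 1. Col1a1, the collagen I chain and highest marker, had a log2 change of 1.19 (SE 0.33; adjusted p = 0.079), and the integrin Itgb1 one of 0.39 (SE 0.11; adjusted p = 0.077). Col1a2 was at 0.62 (SE 0.35) and the hyaluronan receptor Cd44 at 0.06 (SE 0.12). Ly6a had the lowest log2 change of the 17. By level Ly6a ranked 14th, 7th and 9th of the 17 in R replicates 1, 2 and 3, against 2nd, 5th and 4th in vehicle replicates 1, 2 and 3. On the log2(FPKM + 1) scale Ly6a stood -1.16, 0.36 and -0.23 from the mean of the 16 other markers in R, and 3.20, 2.63 and 1.77 above it in vehicle. Thy1, which was too low to be tested and was named after its values were seen, was the 1 stromal marker of 19 with every R library below every vehicle library. In 6 of the 19 every R library was above every vehicle library. Of all tested genes 15.5% had R below and 13.9% R above.

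**Figure D3:**
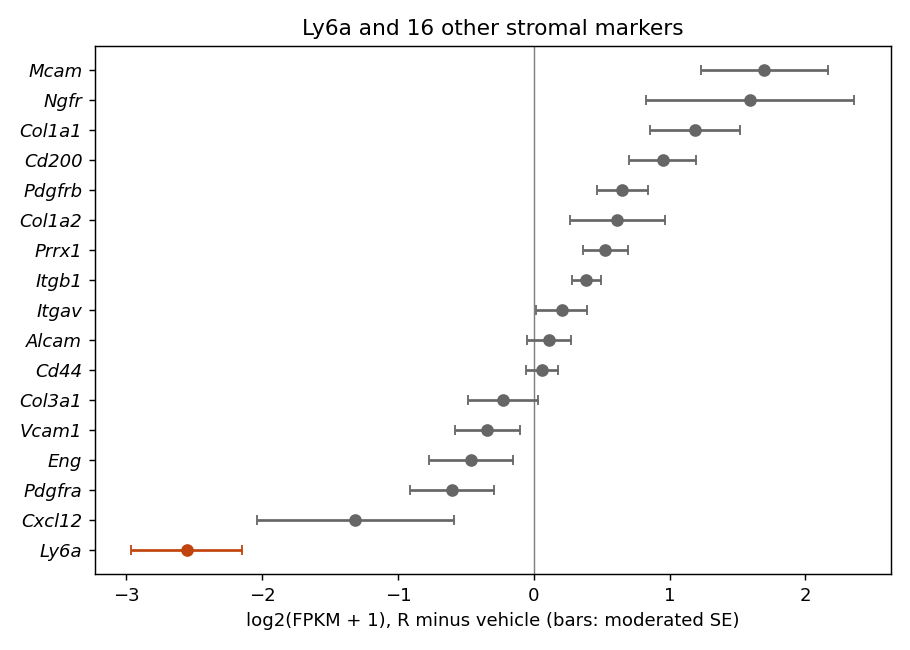
Log2 change of Ly6a and the 16 other tested stromal markers in log2(FPKM + 1), given as R minus vehicle; bars are moderated standard errors. Ly6a is lowest at -2.56 and the one gene called, while Col1a1 is at 1.19.

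Interferon-induced genes were lower in R as well. Of 35 tested genes of a list of 37 interferon-induced genes, 34 were called lower in R and 0 higher, with a median log2 change of -2.61, where 4.43% of all tested genes were called lower. The list was chosen with earlier results of these data known, so its direction is not independent evidence. Several of the 35, Iigp1 among them, passed the filter on low values only through the vehicle libraries, a condition that favours genes low in R. Ifitm3, an antiviral membrane protein, lay between 109 and 173 FPKM in R libraries, against 547 to 810 FPKM in vehicle libraries. Iigp1, an immunity-related GTPase, averaged 0.434 ± 0.146 FPKM in R and 101 ± 28.8 FPKM in vehicle, and Psmb8, an immunoproteasome subunit, 19.7 ± 4.23 FPKM in R and 72.0 ± 8.97 FPKM in vehicle (SD, n = 3 each). Bst2, or tetherin, lay between 79.8 and 108 FPKM in R libraries, against 236 to 322 FPKM in vehicle libraries. Of 11 interferon receptor and signalling genes 4 were called lower, Irf1 among them, and 0 higher, beside the same 4.43% of all tested genes. Irf1, a transcription factor induced by interferon-gamma, had 6.66, 8.01 and 6.69 FPKM in R replicates 1, 2 and 3, against 58.8, 52.9 and 36.4 FPKM in vehicle replicates 1, 2 and 3. The receptor chains Ifngr1 and Ifngr2 had log2 changes of -0.18 (SE 0.12) and 0.05 (SE 0.09) and were not called, nor was the kinase Jak1 (-0.35, SE 0.11).

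The spread between vehicle libraries was shared as well. Ly6a, Ly6e, Ly6c1 and Ly6i were each highest in vehicle replicate 1 and lowest in vehicle replicate 3, and so was the mean log2(FPKM + 1) of the interferon-induced list, at 4.67, 4.41 and 4.16 in vehicle replicates 1, 2 and 3, against 1.71, 1.72 and 1.54 in R replicates 1, 2 and 3. In R, Ly6a and Ly6c1 were lowest in replicate 1, whereas Ly6e and the interferon-induced list were lowest in replicate 3. The mean over 17 tested macrophage markers was 7.10, 6.99 and 6.89 in R replicates 1, 2 and 3, against 7.73, 7.58 and 7.31 in vehicle replicates 1, 2 and 3. The macrophage mean was thus also lower in R, by a smaller amount, and also highest in vehicle replicate 1 and lowest in vehicle replicate 3. The part of macrophages in the LY6 values was not tested. The median log2 change of the markers was -0.53, with 4 of 17 called lower and 1 higher, where 4.43% and 2.39% of all tested genes were. Those called lower, named after their values were seen, were Fcgr1, an Fc receptor (log2 change -2.47), Aif1 (-1.55), the scavenger receptor Msr1 (-1.43) and the integrin Itgam (-0.94), and the 1 called higher was Nr4a1 (1.14). Lyz2, the highest macrophage transcript, had a log2 change of -0.23 (SE 0.19), and the complement genes C1qa, C1qb and C1qc had -0.90, -0.70 and -0.61, none of them called.

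**Figure D4:**
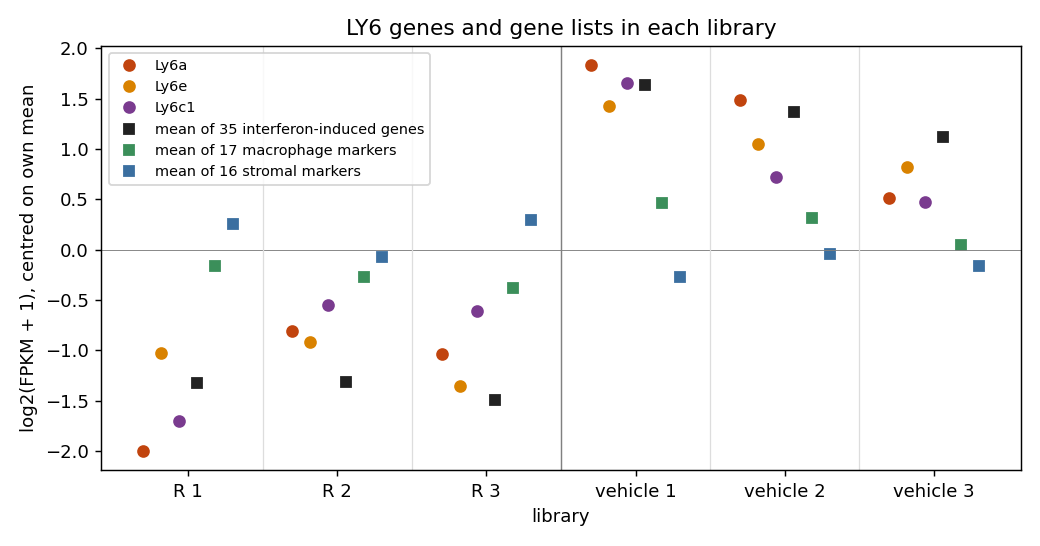
Log2(FPKM + 1) of Ly6a, Ly6e and Ly6c1 and mean over 3 gene lists in each library, each centred on its own mean over the 6 libraries. The LY6 genes and the interferon-induced list lie below 0 in the R libraries and above 0 in the vehicle libraries. So does the macrophage mean, by a smaller amount, while the stromal mean differs much less than the LY6 genes.

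Which genes most resembled Ly6a and Ly6e was asked by the root mean square distance between centred log2(FPKM + 1) profiles over the 6 libraries, among 7417 genes whose mean reached 5 FPKM in either group. The genes nearest to Ly6a were Calhm6 (0.33), Gbp8 (0.37), Irf1 (0.37), Gbp9 (0.38) and Fpr2 (0.39), in log2 units. Of these, Calhm6, Gbp8, Gbp9 and Fpr2 reached 5 FPKM through vehicle alone, a condition that favours genes low in R. Gbp8 and Gbp9 overlap on chromosome 5, so their values may share reads. Ly6c1 lay at 0.40 from Ly6a, a distance that would rank 6th, and Ly6e at 0.50, which would rank 25th. Ly6c1 also reached 5 FPKM through vehicle alone. It shares transcript sequence with Ly6a, so the values of these 2 genes may share reads, and the part of this in their distance was not tested. The genes nearest to Ly6e lay far closer: the peptide transporter Tap1 (0.10), the GTPase Irgm1 (0.10), the MHC class I genes H2-Q5 (0.12) and H2-T23 (0.14), and complement C3 (0.15). H2-Q5 belongs to a group of similar copies, and its value is uncertain. It too reached 5 FPKM through vehicle alone, whereas Tap1, Irgm1, H2-T23 and C3 reached it in both groups. No test was made of these orderings.

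Markers of further cell types that carry LY6 proteins were low. Of 11 endothelial markers 2 were tested and 0 called; the 6 with groups apart were all higher in R, where 13.9% of all tested genes had R above, and of these 6 only Cdh5 was high enough to be tested. The summed FPKM of the 11 was 28.7 to 49.8 in R and 34.6 to 65.7 in vehicle, most of it Eng, which stromal cells and macrophages also express, and Cdh5 ran from 1.08 to 3.39 FPKM in R libraries, against 0.419 to 0.976 FPKM in vehicle libraries. Of 12 T and NK cell markers 8 had every R library below every vehicle library and 1, Cd4, above, where 15.5% of all tested genes had R below and 13.9% R above; most of the 12 were too low to be tested. These markers had a summed FPKM of 3.42 to 8.48 in R and 8.88 to 15.9 in vehicle. Of 3 tested, 1 was called lower: Nkg7, a cytotoxic granule protein named after its values were seen (log2 change -1.47), which passed the filter only through the vehicle libraries, while the receptor gene Trbc2 was at -1.02 (SE 0.30) and not called. Of 8 haematopoietic stem and progenitor markers, whose cells are sorted by Sca-1, Flt3 was at 0 in each library, 3 were tested and 0 called, and the summed FPKM was 12.5 to 18.1 in R and 8.47 to 11.8 in vehicle, led by Procr. Of 10 listed neutrophil markers 8 were in the table; S100a9, Mpo and Elane were at 0, and 0 of 2 tested were called. Of 7 listed B and plasma cell markers 6 were in the table and 0 could be tested, and their summed FPKM was 0.187 to 0.452 in R and 0.145 to 0.371 in vehicle. The part of these cells in the LY6 values was not tested.

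Promoter sequences were at hand for 2 of the 5 members, Ly6c1 and Ly6c2, which differ in level despite nearly identical coding sequences. They cover 250 bases before and 50 after the RefSeq start nearest to the GENCODE gene start, on the minus strand of GRCm38.p6, and are given 5′ to 3′ with capitals at bases that differ from, or have no partner in, the other promoter. The Ly6c1 window is chr15:75048788-75049087 and the Ly6c2 window chr15:75111922-75112221.
Ly6c1: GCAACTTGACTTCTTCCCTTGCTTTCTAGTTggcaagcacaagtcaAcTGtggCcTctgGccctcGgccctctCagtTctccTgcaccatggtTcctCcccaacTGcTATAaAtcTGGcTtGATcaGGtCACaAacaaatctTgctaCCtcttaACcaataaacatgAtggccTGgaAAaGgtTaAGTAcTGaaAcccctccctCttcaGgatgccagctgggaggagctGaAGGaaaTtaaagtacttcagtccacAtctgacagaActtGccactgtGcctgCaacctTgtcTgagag
Ly6c2: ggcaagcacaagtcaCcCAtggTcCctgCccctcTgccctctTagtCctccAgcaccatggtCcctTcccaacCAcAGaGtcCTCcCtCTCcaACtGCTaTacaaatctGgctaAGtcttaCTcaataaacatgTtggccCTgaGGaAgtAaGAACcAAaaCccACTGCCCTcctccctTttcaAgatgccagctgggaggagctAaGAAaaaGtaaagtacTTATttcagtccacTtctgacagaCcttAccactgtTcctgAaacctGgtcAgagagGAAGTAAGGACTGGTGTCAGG
Of 267 aligned bases 204 (76.4%) were identical, a lower share than in the coding sequences. The gamma-activated site pattern TTCNNNGAA and an interferon-stimulated response element pattern, searched on both strands, were in neither window; they occur in 8.30% and 3.44% of the 32851 RefSeq promoter windows of this length.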

How the data were processed

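The authors deposited 1 table of FPKM per gene and library. The submitters' processing notes name edgeR 3.18.1 and the GRCm38 (mm10) build. The sources used here do not give the aligner, counter, annotation, strandedness or read length. Of 49328 listed genes, 49281 matched GENCODE M21, and 1 broken final line was left out. Of 1851 annotated genes of chromosome 15, 1068 were listed. Low FPKM multiplied by the summed exon length were whole multiples of 1 read (98.3% to 98.4% of values under 20.5 reads, tolerance 0.02), which gave the depth of 1.71e+07 to 2.17e+07 reads and the reads per gene. FPKM were not tested as counts. The test was limma 3.58.1 in R 4.3.3 on log2(FPKM + 1), with 2 groups taken from the sample titles and a trend in the prior variance. A filter kept 11862 genes (FPKM of 1 or more in 3 or more libraries), and Benjamini-Hochberg adjustment was at 0.05. It was also run on simulated reads with a fixed spread between libraries, which does not measure its errors at the spread seen here. Alternatives changed the pseudocount, filter, scaling, variance model, weights and replicate block, and left out each library. Coding sequences (APPRIS principal transcripts) and promoters were aligned with MAFFT 7.526. Members and lists were chosen with earlier results of these data known. Genes named are the members, the tested genes of the LY6 cluster list, the 4 highest tested genes of each other list (2 for low cell types), the 5 nearest profiles and the genes around Ly6a; exceptions are stated. The values carry no strand information, so antisense reads cannot be told apart. Some genes of the lists are not reported here by name.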

Additional observations from a re-analysis of the deposited data

How the results depend on the processing

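Ly6e was called under each alternative, and the log2 changes of Ly6a, Ly6e and Ly6c1 stayed negative throughout. Ly6a ran from -2.94 to -2.20 and Ly6c1 from -2.14 to -1.52 when 1 library was left out, and Ly6e from -2.34 to -2.03. Calls were lost with no filter on low values for Ly6a (-2.56, adjusted p = 0.065) and Ly6c1 (-1.90, adjusted p = 0.12), for Ly6a without vehicle replicate 2 (-2.45, adjusted p = 0.053) and for Ly6c1 without any library other than vehicle replicate 3; leaving out the filter enlarges the set over which p-values are adjusted, and it gave Ly6i a call (-1.11, adjusted p = 0.036). Pseudocounts of 0.1 and 5 gave Ly6i -3.31 and -0.31 and Ly6c2 -0.61 and -0.019, against -1.11 and -0.09 with 1. The members called numbered 1 to 3 when 1 library was left out, against 3. The genes called in all numbered 344 with no filter, 2460 with array weights and 337 to 879 when 1 library was left out, against 809. Stromal markers called numbered 8 with array weights and 0 to 1 when 1 library was left out. The difference between Ly6a and Ly6e was 0.039 without R replicate 1 and -0.61 to 0.039 when each library was left out in turn, and that between Ly6a and Ly6i was 0.70 with a pseudocount of 0.1. The cause of these shifts was not tested. The replicate numbers did not pair the samples (correlations of same-numbered deviations 0.14, -0.01 and -0.03); with the replicate number as a block 756 genes were called, Ly6c1 lost its call (-1.90, adjusted p = 0.072) and 3 stromal markers gained one. Ly6c2 and Ly6i, below the filter, have no values for scaling, variance model, weights, block or the stricter filter. Of 37 interferon-induced genes 26 to 36 were called over all alternatives. Depth limits Ly6c2 and Ly6i, with 2 and 3 reads over all R libraries.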
